A study of Mus musculus with 99 samples.

Results

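The cerebellum of 9-month-old mice without Grn, the gene of progranulin, was compared with that of wild-type mice of the same age. The comparison held 6 of the 99 arrays of the series, chosen by the region, genotype and age in their labels, with 1 array from each of 6 animals. Knockout (KO) animals carried 0 working copies of Grn and wild-type (WT) animals 2, and there were 3 animals in each group. The 3 KO animals were 2 males and 1 female by their labels and the 3 WT animals were all males. The other arrays came from cerebellum, cortex and hippocampus of KO, WT and heterozygous (Het) animals of 2, 6 or 9 months. All arrays were normalized together, and the other groups enter the model fits and the later comparisons. The labels name no treatment. Neither the strain nor the construction of the Grn allele is stated in the labels. RNA was extracted from whole dissected tissue and hybridised to 1-colour Illumina MouseRef-8 bead arrays.

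Progranulin is a secreted glycoprotein that is also carried to lysosomes, where it is cut into granulin peptides. Microglia, the resident phagocytes of the brain, and neurons make it, and its loss is known for activated microglia and stored lysosomal material. In the cerebellum, densely packed granule neurons send their fibres to the output neurons, the Purkinje cells, which are accompanied by a specialised astrocyte, the Bergmann glia.

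The values below are log2 intensities after background correction and quantile normalization, and a difference is KO minus WT on that scale. Fitted differences carry the standard error (SE) of a model over all 32 cerebellum arrays, with sex as a covariate. A probe counted as changed when its Benjamini-Hochberg adjusted p in limma, taken over every probe tested, was under 0.05. Levels are not comparable between probes. With 3 arrays against 3, an exact permutation test of 1 gene cannot go below p = 0.1, so single genes are judged by limma alone.

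The 6 arrays had median intensities of 327, 246 and 201 in KO replicates 1, 2 and 3 and of 225, 269 and 286 in WT replicates 1, 2 and 3. They lay on 5 slides, and 1 slide held both genotypes, as KO replicate 1 and WT replicate 3. Cerebellar markers stood at cerebellar levels in all 6. The Purkinje gene Pcp2 had 12.99, 13.01 and 13.43 in KO and 12.93, 12.97 and 13.01 in WT, against a median of 6.79 in cortex. The cortical factor Tbr1 was at 6.24 to 6.45 in the 6 arrays, against a median of 10.3 in cortex. Of the other cerebellum arrays 3, all of 2-month animals, had region markers that went against their label. They enter the pooled spread, and without them the same 5 named genes were called.

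One library stood apart in sex. KO replicate 2 is labelled male, but its Eif2s3y, a gene of the Y chromosome, was at 6.14, against 9.19 in the male KO replicate 1 and 6.10 in the female KO replicate 3. Its Xist, the RNA that silences an X chromosome in females, was at 8.95, against 6.73 in KO replicate 1 and 9.35 in KO replicate 3. The cortex and hippocampus of the same animal showed the female pattern too, with Xist at 9.59 and 8.81. The probes called, most lists and several single genes that were highest in it are given with and without it, and sex and genotype are partly confounded in the 6 animals.

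Of the genes that changed, 4 with a symbol besides Grn were higher in KO: Lyz2, Lyz1, Gpnmb and Lgals3. Lyz1 and Lyz2 encode lysozymes and lie next to each other. The stretches before the transcription start of the 4 genes are shown as those of the named genes that rose. These stretches are not transcribed and say nothing of which transcript a probe reads. The letters are the 250 bases before the annotated start in RefSeq (GRCm38.p6), 5′ to 3′, and capitals mark the longest run that Lyz1 and Lyz2 share.
Lyz1, chr10:117292869-117293118 (minus strand): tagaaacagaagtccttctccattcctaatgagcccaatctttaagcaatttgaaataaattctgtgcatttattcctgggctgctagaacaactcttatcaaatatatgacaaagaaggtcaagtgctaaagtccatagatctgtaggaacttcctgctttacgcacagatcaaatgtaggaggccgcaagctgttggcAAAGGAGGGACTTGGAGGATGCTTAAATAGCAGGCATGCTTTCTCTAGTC
Lyz2, chr10:117282273-117282522 (minus strand): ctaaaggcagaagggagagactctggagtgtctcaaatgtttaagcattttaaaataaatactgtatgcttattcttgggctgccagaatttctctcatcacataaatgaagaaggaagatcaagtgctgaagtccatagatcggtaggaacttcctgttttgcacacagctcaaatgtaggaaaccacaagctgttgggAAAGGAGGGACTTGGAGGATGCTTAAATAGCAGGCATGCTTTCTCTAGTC
Gpnmb, chr6:49036268-49036517 (plus strand): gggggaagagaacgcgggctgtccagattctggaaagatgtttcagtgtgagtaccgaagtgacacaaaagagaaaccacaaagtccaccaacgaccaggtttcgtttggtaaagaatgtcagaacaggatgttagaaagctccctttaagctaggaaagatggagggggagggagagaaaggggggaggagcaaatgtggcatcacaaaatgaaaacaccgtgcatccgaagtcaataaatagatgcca
Lgals3, chr14:47373610-47373859 (plus strand): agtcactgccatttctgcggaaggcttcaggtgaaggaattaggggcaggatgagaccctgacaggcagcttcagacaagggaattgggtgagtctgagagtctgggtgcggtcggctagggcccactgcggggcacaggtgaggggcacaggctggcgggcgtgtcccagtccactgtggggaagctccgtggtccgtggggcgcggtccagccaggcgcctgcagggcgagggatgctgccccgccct

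The shared run of Lyz1 and Lyz2 was 50 bases long and ended at the start site. Over an alignment of 260 columns 205 bases, or 78.8%, were identical. On both strands, none of the 4 stretches held the E-box CACGTG, which 6.02% of 32851 RefSeq stretches of the same length held. None held CACATG (12.3% of all stretches), GAGGAA (23.3%), or the AP-1 site TGANTCA (6.75%). That says only that these letters are not in these windows.

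Grn was far lower in every KO array. Its levels were 6.05, 5.93 and 6.01 in KO cerebellum, against 9.49, 9.24 and 9.27 in WT cerebellum. It fell by 3.39 ± 0.17 in KO (SE, limma adjusted p = 3.7e-13). On the slide that held both genotypes the KO value was lower by 3.23, from 1 array each. In KO arrays the Grn probe was brighter than 3.18 to 7.93% of all probes, against 83.1 to 85.3% in WT arrays, so the KO signal lay near the floor of the arrays and the size of the fall is limited by it. Detection p-values were not used here.

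Apart from Grn, few transcripts changed. Of 12848 probes tested 7 changed (0.0545%), 6 higher (0.0467%) and 1 lower (0.00778%), Grn. At an unadjusted p under 0.05 there were 179 probes (1.39%), 123 higher (0.957%) and 56 lower (0.436%). The 6 higher probes were 2 of Lyz2, 1 each of Lyz1, Lgals3 and Gpnmb, and 1 without a symbol.

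Lyz2, the lysozyme of macrophages and microglia, had 10.36, 10.36 and 10.24 in KO cerebellum, against 8.84, 8.42 and 8.17 in WT cerebellum. The KO arrays lay close together and far above the WT arrays. Lyz2 rose by 1.79 ± 0.24 in KO (3.46-fold, adjusted p = 0.00033). Its second tested probe rose by 1.09 (adjusted p = 0.035). Lyz1, the lysozyme best known from Paneth cells of the gut, had 11.27, 11.68 and 11.64 in KO, against 9.86, 9.77 and 9.35 in WT. It rose by 1.86 ± 0.28 (3.64-fold, adjusted p = 0.0014), on 1 probe. Its other probes were too dim to be tested, with means of 6.48 and 6.19 in KO and 6.41 and 6.34 in WT. A further Lyz2 probe, also too dim, had a mean of 6.16 in KO and 6.23 in WT. Whether each lysozyme probe reads only its own gene was not tested, so the 2 genes are not counted as independent.

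Gpnmb, a membrane glycoprotein of phagocytes with loaded lysosomes, had the largest fitted difference among the probes that rose and the widest KO spread. Its levels were 8.35, 10.58 and 10.19 in KO, against 7.31, 7.70 and 7.47 in WT. All KO arrays were above all WT arrays, but KO replicate 1 stood well below the other two. It rose by 2.15 ± 0.41 (4.43-fold, adjusted p = 0.035). Without KO replicate 2 the difference was 1.63 and the call was lost (adjusted p = 1.00), and it was lost as well on leaving out KO replicate 3 or any 1 WT array. The 3 other Gpnmb probes did not pass the filter on dim probes. Of these the brightest in KO had 6.49, 7.34 and 7.15 in KO and 6.08, 6.05 and 6.27 in WT, in the same order of arrays.

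Lgals3, or galectin-3, a sugar-binding protein of activated microglia that gathers on damaged lysosomes, had 8.97, 9.33 and 9.23 in KO, against 8.38, 8.01 and 7.84 in WT. The groups did not overlap and each was tight. It rose by 1.12 ± 0.19 (2.17-fold, adjusted p = 0.0093). With KO replicate 2 left out it stood at 1.04 (adjusted p = 0.18). The call was also lost without KO replicate 3, WT replicate 2 or WT replicate 3, with differences of 1.00 to 1.08. Without KO replicate 2, 3 of the 7 probes were called, Grn, Lyz2 (1.74, adjusted p = 0.0076) and Lyz1 (1.77, adjusted p = 0.031). With slide as a fixed block Lyz2 rose by 2.12 (adjusted p = 0.0023) and Lyz1 by 2.15 (adjusted p = 0.0048), while Lgals3 stood at 1.11 (adjusted p = 0.65) and Gpnmb at 2.03 (adjusted p = 1.00) without a call. On the slide of both genotypes, KO replicate 1 was above WT replicate 3 by 2.20 for Lyz2, 1.92 for Lyz1, 1.13 for Lgals3 and 0.88 for Gpnmb.

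**Figure D1:**
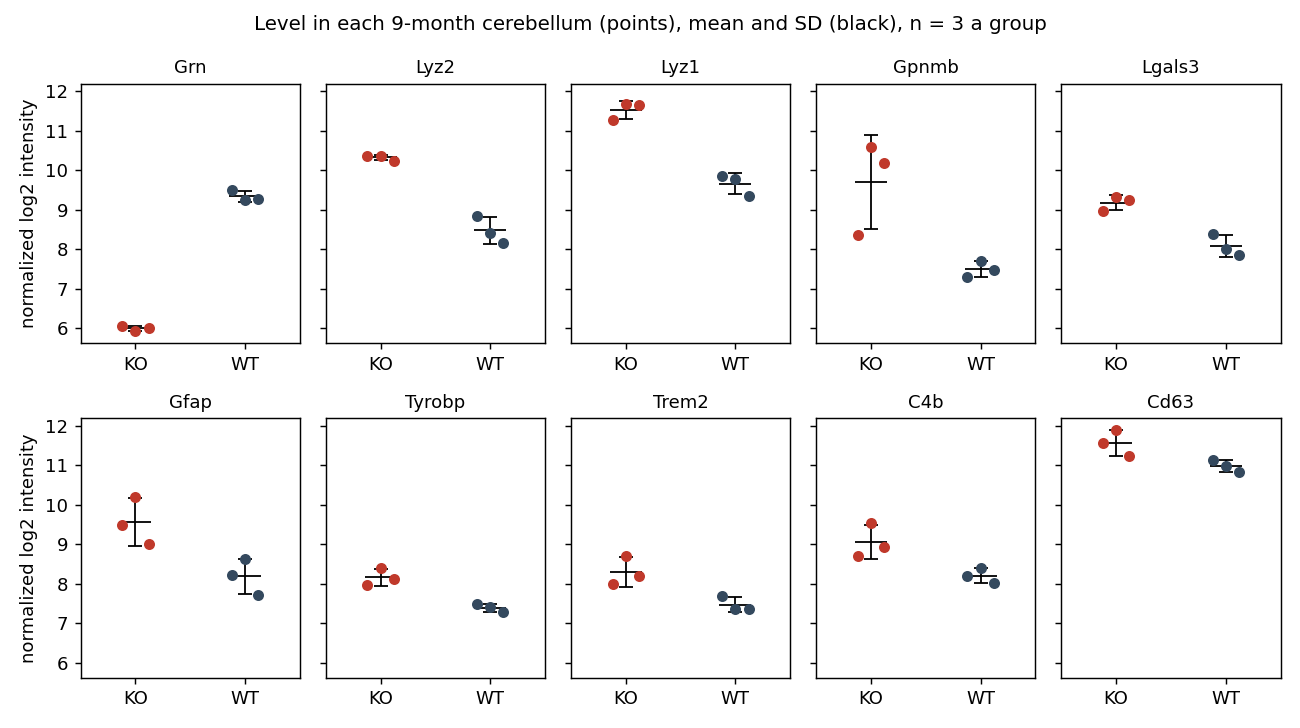
Normalized log2 intensity (y axis) of 10 genes in each KO (red, left) and WT (dark, right) cerebellum of 9 months, with the mean and SD in black (n = 3 a group). The KO and WT points do not overlap for any of the 10 genes, and only Grn, Lyz2, Lyz1, Gpnmb and Lgals3 passed the test over all probes.

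The 6 genes next in order of p on the higher side, Gfap, Cd63, Tyrobp, Gm8909, Timp1 and C4b, did not pass the test. Gfap, the intermediate filament of astrocytes, had 9.50, 10.19 and 9.00 in KO and 8.23, 8.62 and 7.73 in WT (difference 1.44 ± 0.37, adjusted p = 0.96). Every KO array was above every WT array, with about the same spread in both groups. Tyrobp, the adaptor through which the microglial receptor Trem2 signals, had 7.98, 8.40 and 8.13 in KO and 7.48, 7.41 and 7.28 in WT (0.78 ± 0.21). Trem2, which binds lipids and apolipoproteins, had 7.99, 8.71 and 8.20 in KO and 7.69, 7.37 and 7.36 in WT (0.82 ± 0.24). All of these levels were highest in KO replicate 2, and without it the differences were 0.65 ± 0.23 for Tyrobp, 0.59 ± 0.26 for Trem2 and 1.14 ± 0.41 for Gfap. Cd63, a membrane protein of late endosomes and lysosomes, differed by 0.59 ± 0.16, and its other 2 probes by 0.46 and 0.41. Timp1, an inhibitor of matrix metalloproteases, differed by 0.66 ± 0.18 and Gm8909, of the class I histocompatibility family, by 1.08 ± 0.29. For Gm8909, whose family holds near-identical genes, the groups overlapped. Adjusted p for Tyrobp, Trem2, Cd63, Timp1 and Gm8909 was 1.00.

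Genes of activated microglia, as a list, were shifted towards KO. Of 28 genes on the list 26 were on the array and 19 passed the filter on dim probes. Of those 19, 4 rose (Lyz2, Lyz1, Lgals3 and Gpnmb) and 0 fell. This list, like the others, was chosen with earlier results of these data known, so its 4 calls are not separate support for a shift. Lyz1 and Lyz2 are not counted as independent among them. Over all genes, by the brightest probe of each, 0.0446% rose and 0.0112% fell. In 9 all KO arrays were above all WT arrays and in 0 all were below, against 5.32% and 5.19% of the 8964 genes tested. The list median was 0.26, against -0.0061 over all genes. The mean level of the 19 genes was 9.16, 9.64 and 9.22 in KO and 8.83, 8.72 and 8.55 in WT. The groups did not overlap, and KO replicate 2 was the highest. More microglia and more of these transcripts per microglial cell cannot be told apart in bulk tissue. Besides the genes given above, Fcer1g, a signalling chain of Fc receptors, had 9.29, 9.87 and 8.42 in KO and 7.98, 7.76 and 7.78 in WT (1.35 ± 0.48, adjusted p = 1.00, and 0.97 ± 0.53 without KO replicate 2). Cd52, a surface peptide of leukocytes, differed by 0.58 ± 0.24 with overlapping groups, and by 0.14 ± 0.22 without KO replicate 2. Several well-known members were near 0, with Apoe, the main lipid carrier of the brain, at 12.17, 12.65 and 12.07 in KO and 12.30, 12.15 and 11.93 in WT. The probes of the 7 measured members under the filter ran from -0.11 (Itgax, an integrin of phagocytes) to 0.81 (Ccl4, a chemokine, whose second probe was at 0.29) as differences of group means.

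Left out in turn, no array turned the balance: 9 to 12 of the 19 genes had all KO arrays above all WT arrays and 0 below. On leaving out KO replicate 2 the count was 9 and 0, against 14.7% above and 13.7% below over all genes. The list median without that array was 0.17.

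The homeostatic microglia list, genes that mark resting microglia, had a median closer to 0. Of 15 tested genes 0 rose and 0 fell, 3 had all KO arrays above all WT arrays and 1 had all below, against 5.32% and 5.19% over all genes. The median was 0.06. Fcrls, an Fc receptor-like protein, had 7.14, 7.51 and 7.04 in KO and 6.86, 6.70 and 6.74 in WT. Cx3cr1, the receptor for the neuronal chemokine fractalkine, had 8.64, 8.79 and 8.42 in KO and 8.28, 8.14 and 8.23 in WT. Laptm5, a lysosomal membrane protein of leukocytes, differed by 0.56 ± 0.35. Tmem119, one of the most specific microglial markers, had 7.15, 7.27 and 7.29 in KO and 7.27, 7.19 and 7.61 in WT, so that its groups overlapped. Aif1, a calcium-binding protein used to stain microglia, differed by 0.38 ± 0.28 and the purine receptor P2ry12, by which microglia sense injury, had 6.98, 7.43 and 8.35 in KO and 7.83, 7.95 and 7.22 in WT. The list median was -0.07 without KO replicate 2, with 3 genes above and 3 below (14.7% and 13.7% over all genes). Leaving out KO replicate 3 gave 6 above and 1 below (10.9% and 11.1% over all genes).

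Complement genes stood out by their median. Of 7 tested genes 0 passed the test in either direction, but 4 had all KO arrays above all WT arrays and 0 all below, against 5.32% and 5.19% over all genes, and the median was 0.56. C4b, a component that is bound to targets once the cascade has started, had 8.72, 9.55 and 8.92 in KO and 8.19, 8.40 and 8.02 in WT (0.88 ± 0.24, adjusted p = 1.00). C1qa, 1 of the 3 chains of the recognition molecule C1q, had 8.03, 8.73 and 8.21 in KO and 7.99, 7.79 and 7.60 in WT (0.56 ± 0.21). The lowest KO and the highest WT array of C1qa differed by little. C1qb (0.61 ± 0.34) and C1qc (0.66 ± 0.34) had their highest level in KO replicate 2, at 10.46 and 10.38. Left without that array, C1qb stood at 0.15 ± 0.34, C1qc at 0.25 ± 0.35, C1qa at 0.35 ± 0.22 and C4b at 0.62 ± 0.26. The inhibitor Serping1 differed by 0.40 ± 0.17 and C2, the protease subunit, by 0.52 ± 0.22. Cd59a, which blocks the membrane attack complex, was at 10.75, 11.18 and 10.71 in KO and 10.69, 11.02 and 10.98 in WT. With no probe filter, which adds dim genes, the list median was 0.14. Without KO replicate 2 it was 0.35, with 4 genes above and 0 below (14.7% and 13.7% over all genes).

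**Figure D2:**
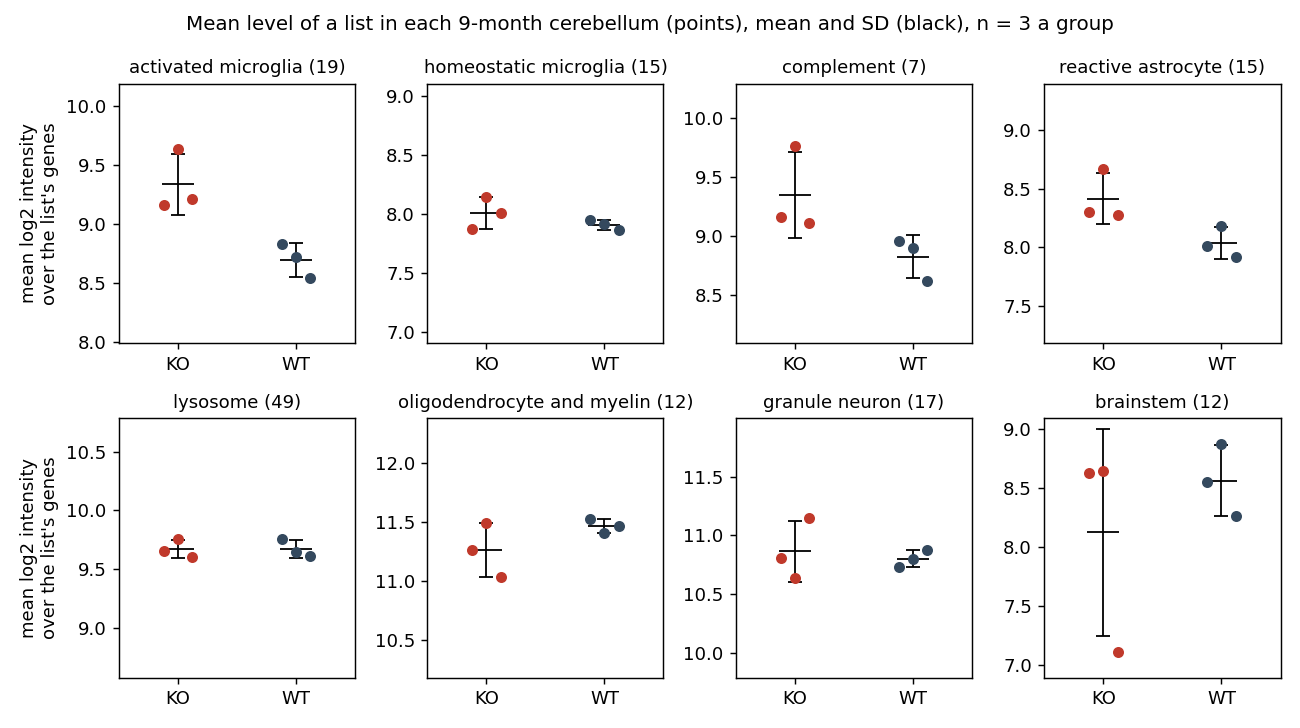
Mean log2 intensity (y axis) over the tested genes of 8 lists in each KO (red, left) and WT (dark, right) cerebellum of 9 months, with the mean and SD in black (n = 3 a group); the number of genes is in each title and every panel spans the same range. The activated microglia, complement and reactive astrocyte panels have no overlap between KO and WT, whereas the brainstem panel has 1 KO array, replicate 3, at 7.11.

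Many reactive astrocyte genes had separated groups. Of 15 tested genes 0 passed the test, 10 had all KO arrays above all WT arrays and 0 all below, against 5.32% and 5.19% over all genes, and the median was 0.33. Besides Gfap, C4b, Timp1 and Serping1 these were Vim, Cd44, Emp1, Cp, Osmr and Aspg. Vim, an intermediate filament that accompanies Gfap, had 9.76, 9.98 and 10.09 in KO and 9.19, 9.53 and 9.48 in WT. Cd44, a receptor of hyaluronan, had 7.47, 7.43 and 7.57 in KO and 6.996, 7.11 and 7.04 in WT (0.46 ± 0.23). The Cd44 groups were tight and apart, but the fitted SE, which is pooled over all cerebellum arrays, was several times the spread seen here. The mean level of the list was 8.30, 8.66 and 8.28 in KO and 8.01, 8.18 and 7.92 in WT. With an array left out the count above was 10 or 11, and without KO replicate 2 the median was 0.19, with 10 genes above and 1 below (14.7% and 13.7% over all genes). Gfap lies 7 tested genes from Grn on chromosome 11.

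With all arrays, general astrocyte and Bergmann glia markers were less shifted. The mean level of the list was 10.73, 10.73 and 10.80 in KO and 10.56, 10.61 and 10.52 in WT, without overlap. Of 16 tested genes 0 passed, 2 had all KO arrays above WT and 1 all below, against 5.32% and 5.19% over all genes, and the median was 0.09. Leaving out KO replicate 2 gave 6 above and 3 below, against 14.7% and 13.7% over all genes, and a median of 0.17. Aqp4, the water channel of astrocyte endfeet, had 12.48, 12.42 and 12.56 in KO and 12.004, 12.05 and 11.95 in WT (0.56 ± 0.26, adjusted p = 1.00). Its groups did not overlap. Slc1a3, the glutamate transporter of Bergmann glia, was at 13.77, 13.94 and 14.15 in KO and 13.87, 13.93 and 13.92 in WT. Gja1, an astrocyte gap junction protein, differed by less than the spread of either group, with 13.06, 13.02 and 13.29 in KO and 13.11, 13.16 and 13.08 in WT.

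The lysosome list had a median near that of all genes. Of 49 tested genes 0 rose and 1 fell, which was Grn itself. In 6 all KO arrays were above all WT arrays, against 5.32% over all genes, and the median was 0.09. Ctsh, a cathepsin with aminopeptidase activity, had 8.27, 8.74 and 8.61 in KO and 7.88, 7.80 and 7.87 in WT (0.69 ± 0.20, adjusted p = 1.00). Hexa, a subunit of the hexosaminidase that degrades gangliosides, had 9.32, 9.40 and 9.08 in KO and 9.07, 8.77 and 8.86 in WT. The other genes with all KO arrays above WT were Cd63, Laptm5, Arsb, a sulfatase of glycosaminoglycans, and Ppt1, a thioesterase, each by its brightest probe. Smpd1, the acid sphingomyelinase, differed by 0.30 ± 0.14 on its probe with the smallest p, where the KO arrays were above the WT arrays too, and by -0.14 ± 0.14 on its brightest probe, which the count used. Major proteases were at similar levels, with Ctsd at 7.22, 7.32 and 7.43 in KO and 7.41, 7.08 and 7.15 in WT, and Ctsb at 13.02, 13.43 and 13.24 in KO and 13.33, 13.34 and 13.10 in WT. Without KO replicate 2 the counts were 6 above and 6 below, against 14.7% and 13.7% over all genes, without KO replicate 3 they were 11 and 3 (10.9% and 11.1%), and without WT replicate 1 they were 16 and 2 (8.18% and 8.03%).

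Partners of progranulin in lysosomal trafficking had a median near that of all genes. Of 16 tested genes 0 passed and the median was 0.04. None had separated groups, against 5.32% above and 5.19% below over all genes, too small a share to tell the list apart from all genes. Sort1, the receptor that takes progranulin into cells, had 7.82, 7.64 and 7.44 in KO and 7.36, 7.47 and 7.45 in WT on its probe with the smallest p (0.21 ± 0.15), and its brighter probe was on the other side of 0 (-0.07). Psap, the prosaposin that carries progranulin to lysosomes, had 13.87, 14.13 and 13.98 in KO and 14.02, 13.78 and 13.73 in WT (0.11 ± 0.12). The autophagy list was at a median of -0.0078 with 0 of 22 genes past the test. In it Map1lc3b, the membrane-bound marker of autophagosomes, had 9.86, 10.15 and 9.89 in KO and 10.41, 10.47 and 10.23 in WT (-0.29 ± 0.22), and Gabarap, of the same family, differed by 0.42 ± 0.17.

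Inflammatory cytokines and NF-kB targets were mostly dim, whereas 17 of 26 measured interferon and antigen presentation genes were tested. Of 25 measured cytokines and NF-kB targets 5 were tested, 0 passed, 3 had all KO arrays above all WT arrays (5.32% over all genes) and the median was 0.22, or 0.08 without KO replicate 2. Tlr2, a receptor of bacterial lipoproteins, had 7.64, 7.85 and 7.37 in KO and 7.12, 7.25 and 7.13 in WT (0.45 ± 0.20). Icam1, an adhesion molecule, had 7.45, 7.44 and 7.38 in KO and 7.10, 7.20 and 7.19 in WT. Interferon response and antigen presentation genes went both ways, with 0 of 17 past the test and a median of -0.03. Cd74, the invariant chain of class II molecules, differed by 0.81 ± 0.28, and B2m, the light chain of class I, by 0.66 ± 0.30. Both were highest in KO replicate 2, and without it they stood at 0.47 ± 0.29 and 0.48 ± 0.33. The antiviral genes Oasl2 and Ifit3 differed by -0.69 ± 0.30 and -0.55 ± 0.33, with overlapping groups.

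Neuronal lists held no gene past the test. Granule neuron markers had a median of 0.10 over 17 genes, Purkinje cell markers 0.02 over 10, cerebellar interneuron markers -0.02 over 10 and synapse genes 0.06 over 18. Leaving out KO replicate 2 gave medians of 0.21, 0.08, -0.03 and 0.16. Slc17a7, the vesicular glutamate transporter of granule neurons, had 11.01, 10.51 and 11.27 in KO and 10.29, 10.50 and 10.52 in WT. Ppp1r17, a phosphatase inhibitor of Purkinje cells, had 8.67, 8.20 and 8.20 in KO and 9.00, 9.14 and 8.69 in WT (-0.50 ± 0.49). It was 1 of 2 Purkinje genes with all KO arrays below WT, the other being the zinc finger gene Bcl11a (-0.33 ± 0.52). Of the 10 Purkinje genes 0 had all KO arrays above WT, and over all genes 5.19% were below and 5.32% above. Immediate early genes, which follow neuronal activity, had a median of 0.09 over 16 genes, and Fos, the best known of them, was at 8.76, 8.53 and 10.62 in KO and 7.72, 9.08 and 8.23 in WT. Its level was set apart by KO replicate 3.

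Oligodendrocyte and myelin genes lay on the lower side. Of 12 tested genes 0 passed, 11 had a lower fitted mean in KO and the median was -0.21. Mal, a proteolipid of compact myelin, had 9.10, 9.65 and 9.16 in KO and 10.33, 10.22 and 9.87 in WT on the probe with the smallest p (-0.71 ± 0.28, adjusted p = 1.00). Mbp, myelin basic protein, had 14.18, 14.07 and 14.38 in KO and 14.45, 14.22 and 14.54 in WT. Opalin, a membrane glycoprotein of myelin, differed by -0.49 ± 0.39. The mean level of the list was 11.27, 11.50 and 11.04 in KO and 11.53, 11.41 and 11.47 in WT, so that KO replicate 2 lay among the WT arrays. With all arrays 1 of the 12 genes had all KO arrays below all WT arrays (5.19% over all genes). Leaving out KO replicate 2 gave 8 of 12 below and 0 above, against 13.7% and 14.7% over all genes, and a median of -0.31. Leaving out any other of the 6 arrays gave 1 to 3 below, against 8.03 to 12.8% over all genes. With slide as a fixed block the median was 0.21, on the other side of 0.

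Marker levels of neighbouring tissue were unequal among the arrays. Brainstem markers had a median of -0.41 over 12 tested genes, and their mean level was 8.63, 8.65 and 7.11 in KO and 8.55, 8.88 and 8.27 in WT. Without KO replicate 3, the low array, the median was 0.13, and with slide as a fixed block it was 0.63. Hoxb5, a gene of hindbrain behind the cerebellum, had 9.94, 10.98 and 7.15 in KO and 9.81, 10.96 and 9.46 in WT. KO replicate 3 had a low level of both the brainstem and the myelin list (7.11 and 11.04). KO replicate 1 was also below the WT arrays in myelin (11.27, against 11.41 to 11.53), with a brainstem level of 8.63. The part of brainstem tissue in the myelin values was not tested. Lyz2, Lyz1, Lgals3 and Gpnmb were all above every WT array in KO replicate 3, as in the other KO arrays. Choroid plexus markers were higher on average in all 10 tested genes (median 0.22, highest 0.37, 0 past the test). Blood genes were lower in all 5 (median -0.36), led by the haemoglobin gene Hba-a1 at 8.05, 8.69 and 10.33 in KO and 9.79, 9.71 and 11.64 in WT. The granulocyte genes S100a8 and S100a9 were highest in WT replicate 2, at 9.12 and 8.21, whereas in KO they were at 7.48 to 7.96 and 6.74 to 7.11.

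The remaining lists had no gene past the test and medians of -0.16 to 0.08. The medians were 0.05 for endothelial and pericyte genes (17 tested), -0.02 for meninges and fibroblast genes (11), 0.03 for Wnt signalling (19) and -0.05 for the circadian clock (14). They were -0.13 for cholesterol synthesis (14), -0.02 for the mitochondrial respiratory chain (25) and -0.03 for the unfolded protein and heat shock response (15). Cortex and hippocampus markers were at 0.01 (9) and -0.16 (8). The fitted mean was higher in KO for 3 of 14 cholesterol genes and 1 of 8 hippocampus markers, against 48.4% over all genes. Without KO replicate 2 these 2 medians were -0.20 and -0.23. Of 19 Wnt genes 3 had all KO arrays above all WT arrays and 0 all below, against 5.32% and 5.19%. Of 25 respiratory chain genes 4 had all KO arrays below all WT arrays, against 5.19% over all genes, and 8 without KO replicate 2, against 13.7%. Of 9 cortex markers 2 had all KO arrays above, against 5.32%, and 5 without KO replicate 2, against 14.7%. The fitted median of the cortex markers without that array was -0.12, on the other side of 0. The respiratory chain genes included Cox5b, a subunit of the terminal oxidase, with 13.49, 13.55 and 13.57 in KO and 13.60, 13.70 and 13.85 in WT. Esam, an adhesion protein of the vessel wall, was lower in all KO arrays too, and Tcf7l2, the effector of Wnt signalling, was higher in all KO arrays, with a difference of 0.64 ± 0.51. The sex-linked list had a median of 0.08 over 8 genes.

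**Figure D3:**
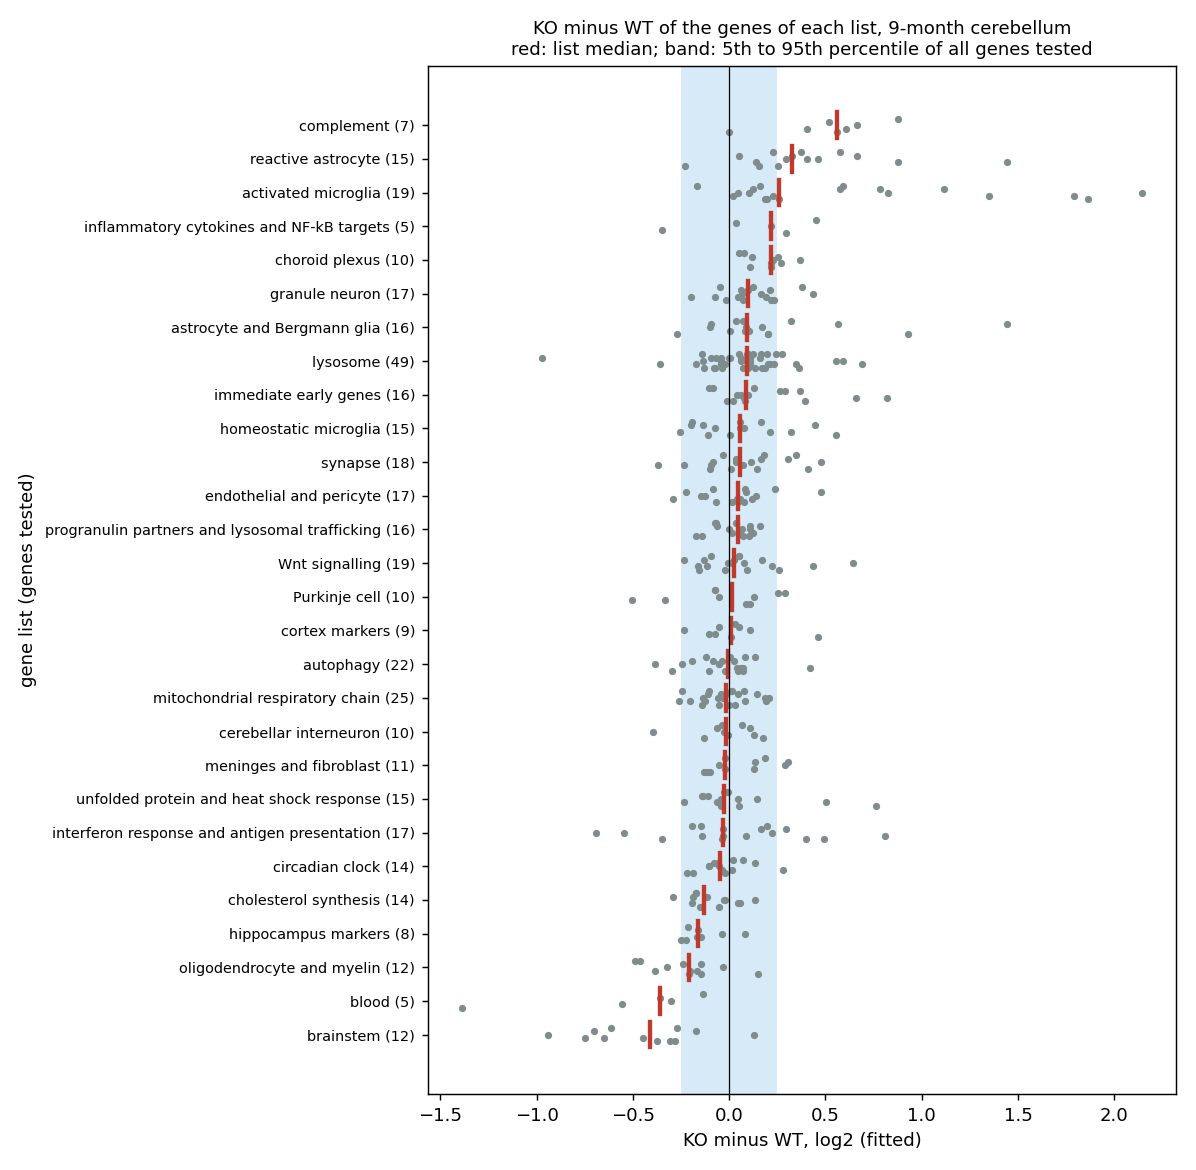
Fitted KO minus WT difference on the log2 scale (x axis) of each tested gene (grey points) of 28 lists (y axis, genes tested in brackets), with the list median in red; the band spans the 5th to 95th percentile of all 8964 genes, and Grn, at -3.39 on the lysosome list, is left out. Complement, reactive astrocyte and activated microglia have the highest medians and blood and brainstem the lowest.

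Besides Grn no gene fell. Those next in order of p on the lower side had differences of -0.84 to -0.29 with adjusted p of 1.00, apart from 2 genes of the Y chromosome. Fbxo31, part of a ubiquitin ligase, had 7.88, 8.34 and 7.97 in KO and 8.58, 8.54 and 8.41 in WT (-0.50 ± 0.15), and its second probe differed by -0.17. Aak1, a kinase of clathrin adaptors, had 11.75, 11.67 and 11.86 in KO and 12.14, 12.13 and 11.95 in WT. Tpm2, a tropomyosin, had 7.65, 7.48 and 7.69 in KO and 8.06, 9.14 and 7.998 in WT, where WT replicate 2 was high. The others were Fam171a2, Rdm1, Arhgap27 and Gdpd1, all on chromosome 11, and Eif2s3y and Kdm5d on the Y chromosome. The Y-linked differences, -1.54 ± 0.52 and -0.82 ± 0.30, stand beside the low Eif2s3y of KO replicate 2, which the model takes as male by its label.

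Genes around Grn on chromosome 11 had a higher share of separated groups than genes elsewhere, given as counts with no test. Of the 20 tested genes nearest to Grn, 10 on each side, 7 had all KO arrays above all WT arrays and 2 all below, together 45%, against 10.6% of the 8173 genes on other chromosomes. Over 100 genes, 50 on each side, the share was 19%, and over the whole chromosome without Grn 9.96%. None of the 20 passed the test over all probes by brightest probe, 3 had an unadjusted p under 0.05 (15%, against 1.3% on other chromosomes, and 0.892% higher and 0.535% lower over all genes). The nearest neighbour, Fam171a2, had 8.64, 8.95 and 9.19 in KO and 9.43, 9.33 and 9.30 in WT (-0.46 ± 0.15, adjusted p = 1.00). It was also lower in KO cortex (-0.59) and hippocampus (-0.61) of the same animals. Lsm12, an RNA-binding protein 8 tested genes away, had 8.58, 8.25 and 8.42 in KO and 7.97, 7.96 and 7.75 in WT on its probe with the smallest p (0.54 ± 0.15, adjusted p = 1.00). Its brighter probe overlapped between the groups (0.39 ± 0.15). The former Lsm12 probe rose in cortex (0.90, limma adjusted p = 1.3e-05) and hippocampus (0.77, adjusted p = 8.9e-04) of the same animals. It also rose in 6-month cerebellum (0.72, adjusted p = 0.032). The brighter probe differed by 0.21, 0.25 and 0.14 in these 3 comparisons. Fzd2, a Wnt receptor, had 7.01, 7.07 and 7.09 in KO and 6.90, 6.71 and 6.76 in WT. Rdm1 had 8.30, 8.31 and 8.33 in KO and 8.66, 8.63 and 8.77 in WT, with the KO arrays close together and all below the WT arrays. Of the 22 genes of chromosome 11 with an unadjusted p under 0.05, Grn included, the rest ran from -1.39 (Hba-a1) to 1.44 (Gfap). A list of genes near Grn had 0 of 39 past the test and a median of 0.01.

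**Figure D4:**
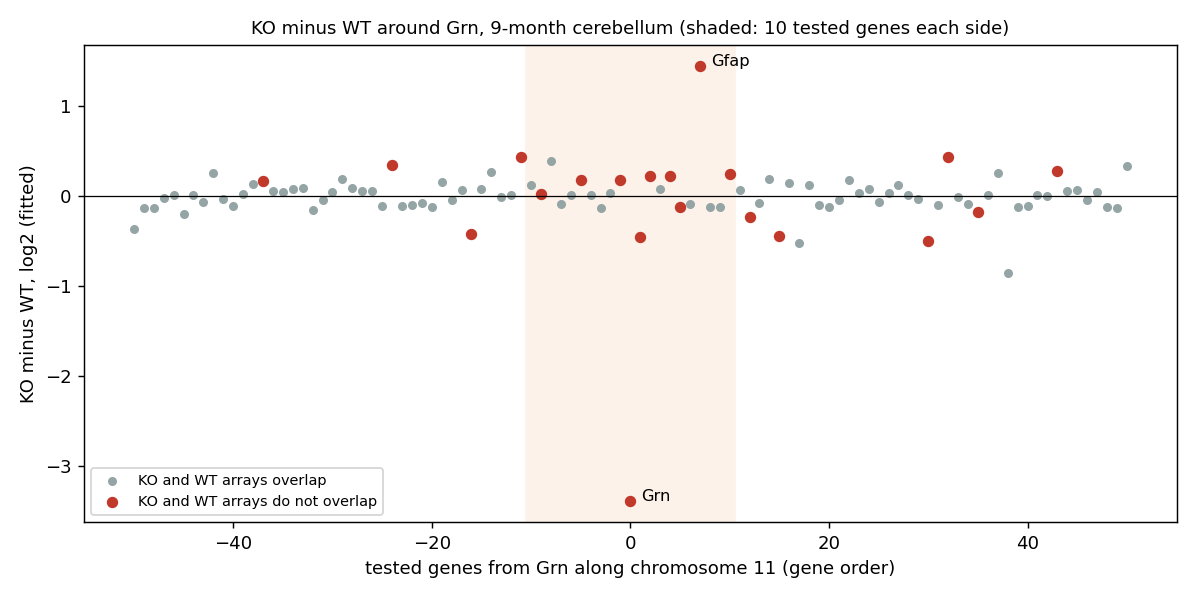
Fitted KO minus WT difference on the log2 scale (y axis) of the 50 tested genes on each side of Grn, in gene order along chromosome 11 (x axis), 9-month cerebellum; red points have KO and WT arrays that do not overlap, and the 10 genes on each side are shaded. Apart from Grn at -3.39 and Gfap at 1.44 the red points lie between -0.50 (Cyb561) and 0.44 (Mpp3).

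At younger ages the same genes differed less between KO and WT cerebellum, but no gene's difference between ages passed the test. At 2 months 5 KO animals were compared with 4 WT animals and 3 probes changed (0.0233%). Among these arrays, KO replicate 1 and WT replicate 4 had region markers that went against their label, and both were kept in the 2-month values. At 6 months there were 3 and 3 and 359 probes changed (2.79%). Lyz2 differed by 0.28 ± 0.19 at 2 months, 1.24 ± 0.25 at 6 months and 1.79 ± 0.24 at 9 months, and the rise passed the test at 6 months too (adjusted p = 0.031). Its mean level was 8.51 ± 0.21, 9.21 ± 0.75 and 10.32 ± 0.07 in KO and 8.20 ± 0.11, 8.08 ± 0.13 and 8.48 ± 0.34 in WT at these ages (SD). The KO mean was higher at each later age while the WT means stayed close together. Lyz1 differed by 0.40 ± 0.22, 1.41 ± 0.29 and 1.86 ± 0.28, and it also rose at 6 months (adjusted p = 0.031). Gpnmb differed by 0.22 ± 0.33, 0.98 ± 0.43 and 2.15 ± 0.41, and 1 KO array of 2 months was already at 8.74. Lgals3 differed by 0.24 ± 0.15, 0.10 ± 0.20 and 1.12 ± 0.19, so that it was low at both earlier ages. The difference of Grn was -2.93 at 2 months, -2.65 at 6 months and -3.39 at 9 months.

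The tests of the differences themselves found 0 of 12848 probes at 9 against 2 months (0%, with 333, or 2.59%, at an unadjusted p under 0.05 in limma) and 0 at 9 against 6 months (1694, or 13.2%, unadjusted). The difference of Lyz2 was larger at 9 than at 2 months by 1.51 ± 0.31 (adjusted p = 0.24), that of Lyz1 by 1.47 ± 0.35 (0.95), that of Gpnmb by 1.93 ± 0.52 (1.00) and that of Lgals3 by 0.87 ± 0.24 (1.00). Against 6 months Lgals3 was larger by 1.02 ± 0.28 (adjusted p = 0.19). The 2-month arrays lay on other slides than the 6- and 9-month arrays, and the 6-month WT animals were all female, so age cannot be told apart from slide in the first and sex is unequal in the second. At 6 months the granule neuron list also had a median of -0.74 and the brainstem list one of 0.72 in KO against WT, whose part in the 6-month counts was not tested. The median of activated microglia was 0.21 at 2 months, 0.44 at 6 months and 0.26 at 9 months, and that of complement 0.13, 0.74 and 0.56.

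**Figure D5:**
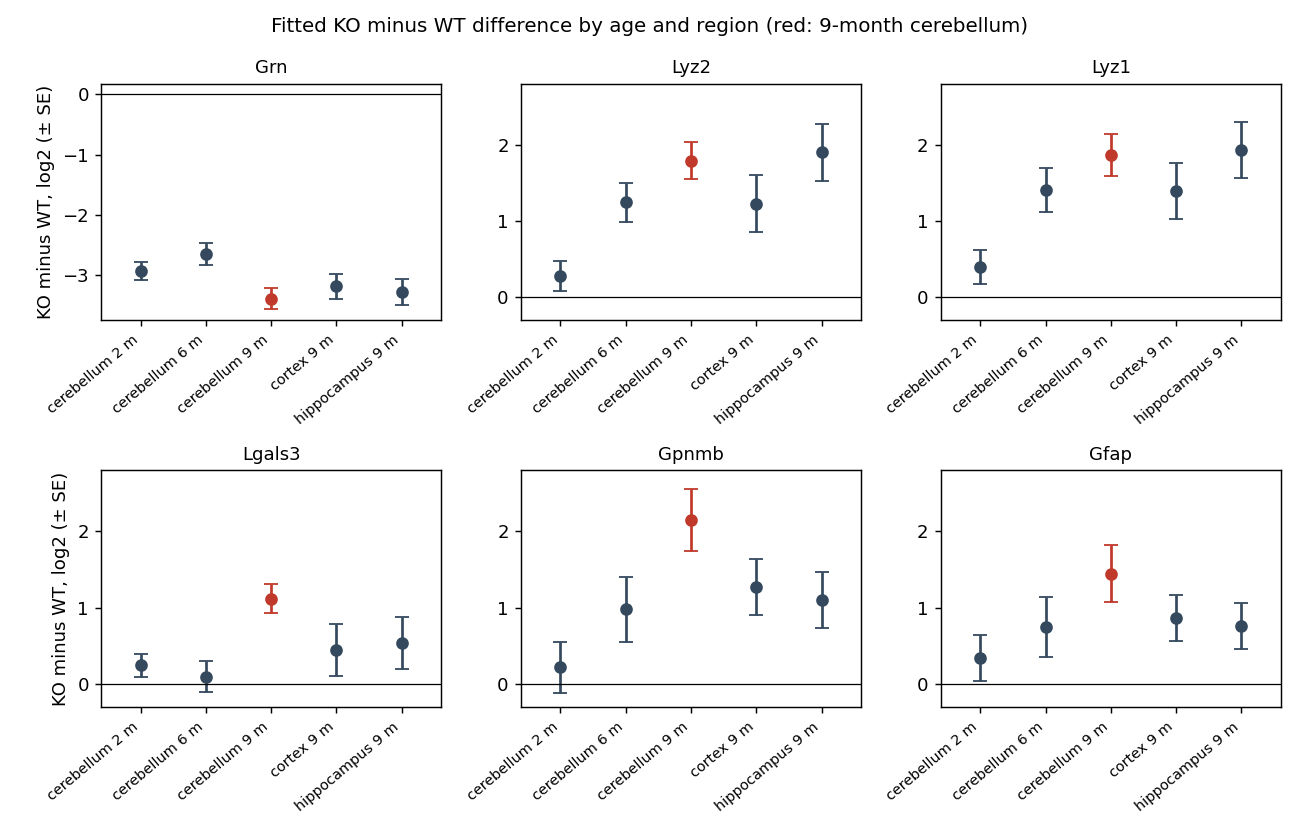
Fitted KO minus WT difference on the log2 scale with its SE (y axis) for 6 genes in cerebellum of 2, 6 and 9 months and in cortex and hippocampus of 9 months (x axis); the 9-month cerebellum is red. Lyz2, Lyz1, Gpnmb and Gfap have their highest cerebellar value at 9 months, and Lgals3 is above 1 only there.

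The same 6 animals also gave cortex and hippocampus, where 2 (0.0156%) and 6 (0.0467%) probes changed at 9 months. Lyz2 differed by 1.22 ± 0.37 in cortex (adjusted p = 1.00) and rose by 1.90 ± 0.37 in hippocampus (adjusted p = 0.0088). Lyz1 differed by 1.40 ± 0.37 in cortex and rose by 1.93 ± 0.37 in hippocampus (adjusted p = 0.0056). Gpnmb differed by 1.27 ± 0.37 and 1.104 ± 0.37 in these regions, and Lgals3 by 0.44 ± 0.34 and 0.53 ± 0.34. Cerebellum exceeded the mean of the other regions by 0.96 ± 0.44 for Gpnmb, 0.63 ± 0.41 for Lgals3 and 0.63 ± 0.36 for Gfap. Of all probes 0 passed that test (limma, 158, or 1.23%, with an unadjusted p under 0.05), and each of these genes had an adjusted p of 1.00. For Lyz2 and Lyz1 the excess was 0.23 ± 0.45 and 0.20 ± 0.44.

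In heterozygous (Het) animals of 9 months only Grn passed the test against WT, and the difference between KO and Het was not tested. Against the same 3 WT arrays, Grn fell by 1.27 ± 0.17 in 3 Het cerebella (adjusted p = 8.0e-04) and was the 1 probe called (0.00778%). Its levels were 8.35, 7.73 and 8.10 in Het, and all lay between those of the KO and WT arrays. Lyz2 was at 7.56, 8.31 and 8.25 in Het, Gpnmb at 7.00059 to 7.23 and Lgals3 at 7.52, 8.09 and 7.80, with differences from WT of -0.44 ± 0.24, -0.34 ± 0.40 and -0.27 ± 0.19. The Het and KO comparisons share their WT arrays.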

How the data were processed

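RNA of 99 mouse brain samples was measured on 1-colour Illumina MouseRef-8 arrays. The deposited values were bead-summary intensities, 1 per probe and array, not normalized between arrays; BeadStudio was named per the submitters' processing notes. A second deposited table held log2 values, which equalled the quantile-normalized log2 intensities without background correction (largest difference 5.0e-14). Intensities of 25697 probes were background-corrected (normexp, offset 50, limma 3.58.1, R 4.3.3), taken to log2 and quantile-normalized over 99 arrays. Probes with a mean over the 32 cerebellum arrays above the 50th percentile (6.80) were tested, 12848 in all. A linear model (lmFit, eBayes with trend) held 9 genotype-by-age groups and sex. The comparison with the other regions used all 99 arrays, with the animal as a random block (statmod 1.5.0, correlation 0.0573). Tests were two-sided. Lists used the brightest tested probe of each of 8964 genes. Promoters of Lyz1 and Lyz2 were aligned globally (Biopython 1.88).

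Per the labels each replicate is another animal, and the number of arrays limits the precision. Same-numbered KO and WT arrays had correlated deviations of -0.13, 0.27 and 0.32, so the numbers were not taken to pair them. Scripts were tested on simulated data. Alternatives were no background correction, median scaling, other probe filters, slide, sex and replicate terms, array weights, fewer arrays and each array left out. Named were Grn, up to 15 genes each way past the threshold, filled to 10 by p, and up to 5 members of each list by p, each by its probe with the smallest p. Pcp2, Tbr1, Apoe, Tmem119, P2ry12, Cx3cr1, Cd52, Ccl4, Itgax, Trem2, Fcer1g, C1qb, Gja1, Slc1a3, Ctsd, Ctsb, Cd59a, Hoxb5, Vim and the further genes with separated groups were chosen after their values were seen. Values without KO replicate 2 were added after seeing the data. Members, lists and rules were chosen with earlier results of these data known.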

Additional observations from a re-analysis of the deposited data

Results flagged for a closer look

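Over 10 combinations of a gene that changed and a KO or WT cerebellum group of at least 4 arrays, 1 held an array far from the rest, and chance flags about 1 in 20. At 2 months the Lyz1 level of KO replicate 3 was 9.50, whereas the other 4 KO arrays were at 9.89 to 10.03, and its gap was 0.729 of the range.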

How the results depend on the processing

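The 7 probes called in KO against WT became 12 with median scaling, 2 with a stricter probe filter, which drops Grn itself, and 3 with slide as a fixed block. Array weights gave 21 (13 higher, 8 lower), and leaving out the animal of doubtful sex gave 3. With only the 6 arrays and no sex term there were 12, also where these were normalized among themselves, and with only the arrays of 6 and 9 months 2. In that last setting the named probes of Lyz2, Lyz1, Lgals3 and Gpnmb all lost the call (limma adjusted p = 0.070, 0.13, 0.094 and 0.24). Their differences there were 1.74, 1.79, 1.14 and 2.10. Without the arrays of doubtful region and that animal, a setting chosen after seeing the data, there were 2. Leaving out 1 of the 6 arrays gave 3 to 6 calls, with 3 each without KO replicate 2, KO replicate 3, WT replicate 2 and WT replicate 3, and Grn at -3.45 to -3.31. With the replicate number as a block there were 3 calls, and 47 (34 higher, 13 lower) with only the 6 arrays, although the numbers were not taken to pair the animals.

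The comparison of 9 with 2 months had 0 calls, 2 with median scaling and 1 with array weights. It had 0 without the arrays of doubtful region and 0 with any 1 of the 6 arrays left out. That of 9 with 6 months had 0 calls, 1687 with array weights (821 higher, 866 lower), 1 without the animal of doubtful sex, 1 without this animal and the arrays of doubtful region, and 0 to 1 with 1 array left out. The comparison with the other regions had 0 calls in every alternative run. The causes were not tested.

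Grn was called in 24 of 24 settings, Lyz2 in 24 of 25, Lyz1 in 23 of 25, Lgals3 in 15 of 24 and Gpnmb in 12 of 24. Not all settings are separate checks. The deposited log2 values gave the same fit as no background correction. In cerebellum, leaving out the animal of doubtful sex is the same as leaving out KO replicate 2. Of 557 values of named genes under an alternative 24 lost the call, 17 gained it and 0 changed direction among those called. Over the alternatives the median ranged over 0.17 to 0.63 for activated microglia, 0.14 to 0.84 for complement, 0.19 to 0.49 for reactive astrocyte genes and 0.04 to 0.11 for lysosome genes. Dim probes limit what can be seen: cytokines were mostly under the filter, and KO Grn lies near the floor.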
